A study of Mus musculus with 7 samples.

Results

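Zinc handling genes were examined in pancreatic islets of mice with and without Wnt4 in their β-cells. The set held 10 genes in all, of 22911 gene symbols on the array. They were 4 zinc exporters (Slc30a1, Slc30a5, Slc30a7, Slc30a8), 4 zinc importers (Slc39a1, Slc39a5, Slc39a7, Slc39a14) and 2 metallothioneins (Mt1, Mt2). Members were taken by symbol, through the accession that the array design gives to each probe, and every probe was kept. This gave 13 probes, of which Slc30a5, Slc39a7 and Mt1 had 2 each, and all 13 passed the filter on dim probes.

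Islets came from 7-week-old male mice, 1 array a sample. The 4 Wnt4βKO samples (replicates 1 to 4) were Pdx1CreER;Wnt4 fl/fl, in which a tamoxifen-dependent Cre recombinase under the Pdx1 promoter deletes the floxed Wnt4 alleles. The 3 control samples (replicates 2 to 4) carry the genotype WT in the labels and are described in the study's methods as Wnt4 fl/fl littermates without Cre. Both groups received tamoxifen (50 mg/mL) by gavage at 4 to 5 weeks of age and had been crossed to C57BL/6J, and no group carried the Cre without floxed Wnt4 alleles. Pdx1 is active in β-cells and in some other pancreatic cells, and islets also hold α-, δ- and PP cells, vessels, immune cells and adhering exocrine tissue. In such bulk RNA, fewer cells of a type and less RNA per cell cannot be told apart. Nothing in the labels ties the samples to separate animals, so the p-values measure the spread between these samples.

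β-cells hold some of the highest zinc concentrations of any cell type, because insulin is stored in secretory granules as crystals of zinc-bound hexamers. Members of the Slc30 family (ZnT) move zinc out of the cytosol, either into organelles or out of the cell, and members of the Slc39 family (ZIP) move it into the cytosol. Metallothioneins are small cysteine-rich proteins that bind free zinc, and their genes are switched on by the zinc-sensing factor MTF1 through metal response elements, and also by glucocorticoids and oxidative stress.

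The upstream sequences of the genes best known as MTF1 targets, Mt1, Mt2 and Slc30a1, are shown with that of Slc30a5, the member with the smallest p-value. Each is the 250 bases before the start that RefSeq annotates on GRCm38.p6, read on the gene's strand from 5′ to 3′. The windows lie at chr8:94178839-94179088 (plus strand) for Mt1, chr8:94172368-94172617 (plus strand) for Mt2, chr1:191906531-191906780 (plus strand) for Slc30a1 and chr13:100833428-100833677 (minus strand) for Slc30a5. Capitals mark matches to the metal response element core, TGCACNC or TGCGCNC on either strand.
Mt1: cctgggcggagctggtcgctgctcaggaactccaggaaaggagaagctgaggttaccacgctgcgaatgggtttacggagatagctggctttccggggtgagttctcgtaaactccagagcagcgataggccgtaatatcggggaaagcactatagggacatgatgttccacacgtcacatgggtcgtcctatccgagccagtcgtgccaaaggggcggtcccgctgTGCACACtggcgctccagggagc
Mt2: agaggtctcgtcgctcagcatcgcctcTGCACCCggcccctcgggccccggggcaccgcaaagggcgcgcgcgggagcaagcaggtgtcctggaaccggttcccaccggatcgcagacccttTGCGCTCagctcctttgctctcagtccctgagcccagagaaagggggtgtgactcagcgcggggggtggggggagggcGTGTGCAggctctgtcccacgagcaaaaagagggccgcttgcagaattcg
Slc30a1: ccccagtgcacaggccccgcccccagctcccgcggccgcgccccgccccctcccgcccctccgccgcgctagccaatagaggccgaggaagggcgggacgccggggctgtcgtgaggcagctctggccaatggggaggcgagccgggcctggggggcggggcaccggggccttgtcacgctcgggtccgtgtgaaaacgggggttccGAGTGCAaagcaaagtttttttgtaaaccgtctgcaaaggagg
Slc30a5: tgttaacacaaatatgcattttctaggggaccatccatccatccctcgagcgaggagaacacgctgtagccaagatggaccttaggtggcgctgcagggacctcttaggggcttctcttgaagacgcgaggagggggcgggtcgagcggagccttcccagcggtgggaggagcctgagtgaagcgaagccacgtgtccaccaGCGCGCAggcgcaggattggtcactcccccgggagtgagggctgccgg

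RefSeq windows were at hand for 8 of the 10 genes, 9 windows in all, since Slc39a5 had 2. Slc30a8 and Slc39a14 were not matched. Mt2 held 3 matches, Mt1, Slc30a1 and Slc30a5 held 1 each, and 1 of the windows of Slc39a5 held 1. None was found in the windows of Slc30a7, Slc39a1 and Slc39a7. Among all 32851 windows of the same length, 21.4% held at least 1 match and 1.26% held at least 3. In Mt2 the matches began 223, 128 and 50 bases before the start, and in Mt1 the match began 23 bases before it. These are matches of letters in a window set by the annotated start, and a window without one says only that the letters are not in it. The counts say nothing of elements outside the windows, so a gene may hold more than its count.

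**Figure D1:**
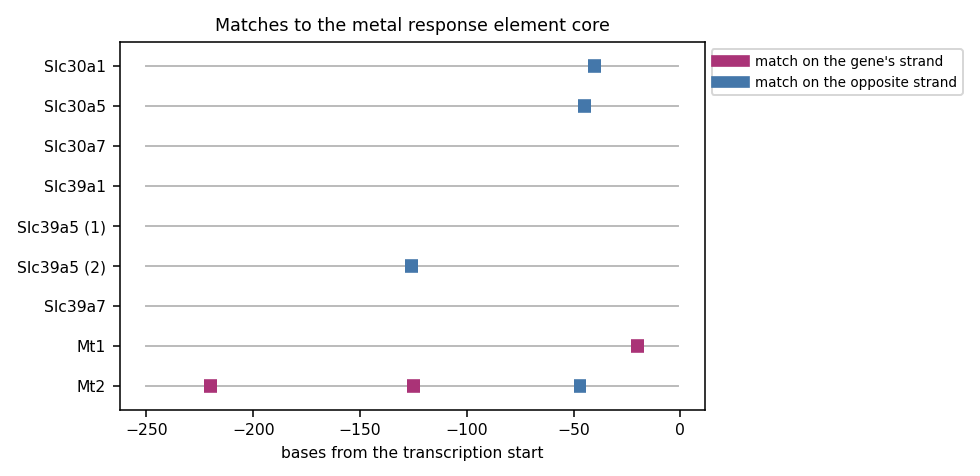
Position of each match to the metal response element core in the 250 bases before the transcription start, in bases, with 1 line per RefSeq window and colour for the strand. Mt2 has 3 matches, and Slc30a7, Slc39a1 and Slc39a7 have none.

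The arrays were compared before the results were read. Wnt4 had a log2 signal of 11.55, 11.17 and 11.80 in control and 11.32, 10.82, 11.01 and 10.90 in Wnt4βKO islets, so that the groups overlapped at 1 control and 1 Wnt4βKO sample. The level in Wnt4βKO was 71.0% of control (limma unadjusted p = 0.0237, adjusted p = 0.651). Over 20 alternatives the log2 difference of Wnt4 lay between -0.71 and -0.35, with an unadjusted p under 0.05 in 13. The position of its probe against the floxed part of the gene is not known here, so it checks the labels only in part. Of the spots, 45.5% to 49.0% were well above background. Acinar genes, which encode digestive enzymes of the exocrine pancreas, averaged 13.43 to 13.55 over 26 of 27 listed genes in control and 12.23 to 13.25 in Wnt4βKO islets, without overlap. Slc2a2, which encodes the glucose transporter of mouse β-cells, was at 34.4% of control, with an adjusted p of 0.00697. The spiked-in control RNA read 1.86 to 2.15 log2 units over the 75th percentile of each control array and 2.29 to 3.89 over that of each Wnt4βKO array.

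None of the 13 zinc probes differed between Wnt4βKO and control islets after adjustment over all 26153 tested probes, of which 0.0153% passed. Slc30a5 and Slc39a1 came closest to a difference, with lower signal in Wnt4βKO. Slc30a8, Mt1 and Mt2 gave differences near 0 with wide intervals. The smallest adjusted p among the 13 was 0.507. Without adjustment, 3 probes of 2 genes (23.1%) had a p under 0.05, all lower in Wnt4βKO, where 7.02% of all tested probes passed in either direction and 3.75% passed lower. For 4 probes of 3 genes (30.8%) every Wnt4βKO sample lay below every control sample, and 3.84% of all tested probes were separated in that direction. The Slc30a7 probe, 1 of these 4, had only 2 control values, with which groups are more easily apart. No probe was separated upwards. In all, 10 differences were negative and 3 positive, with a median log2 difference of -0.10 (0.001 over all tested probes). Both probes of Slc30a5 read the same gene, so the probes are not independent. At 1 probe a gene, 2 of the 10 genes passed lower without adjustment, against 4.61% of all tested genes. The genes were chosen with earlier results of these data known, so these shares describe them and are no test.

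**Figure D2:**
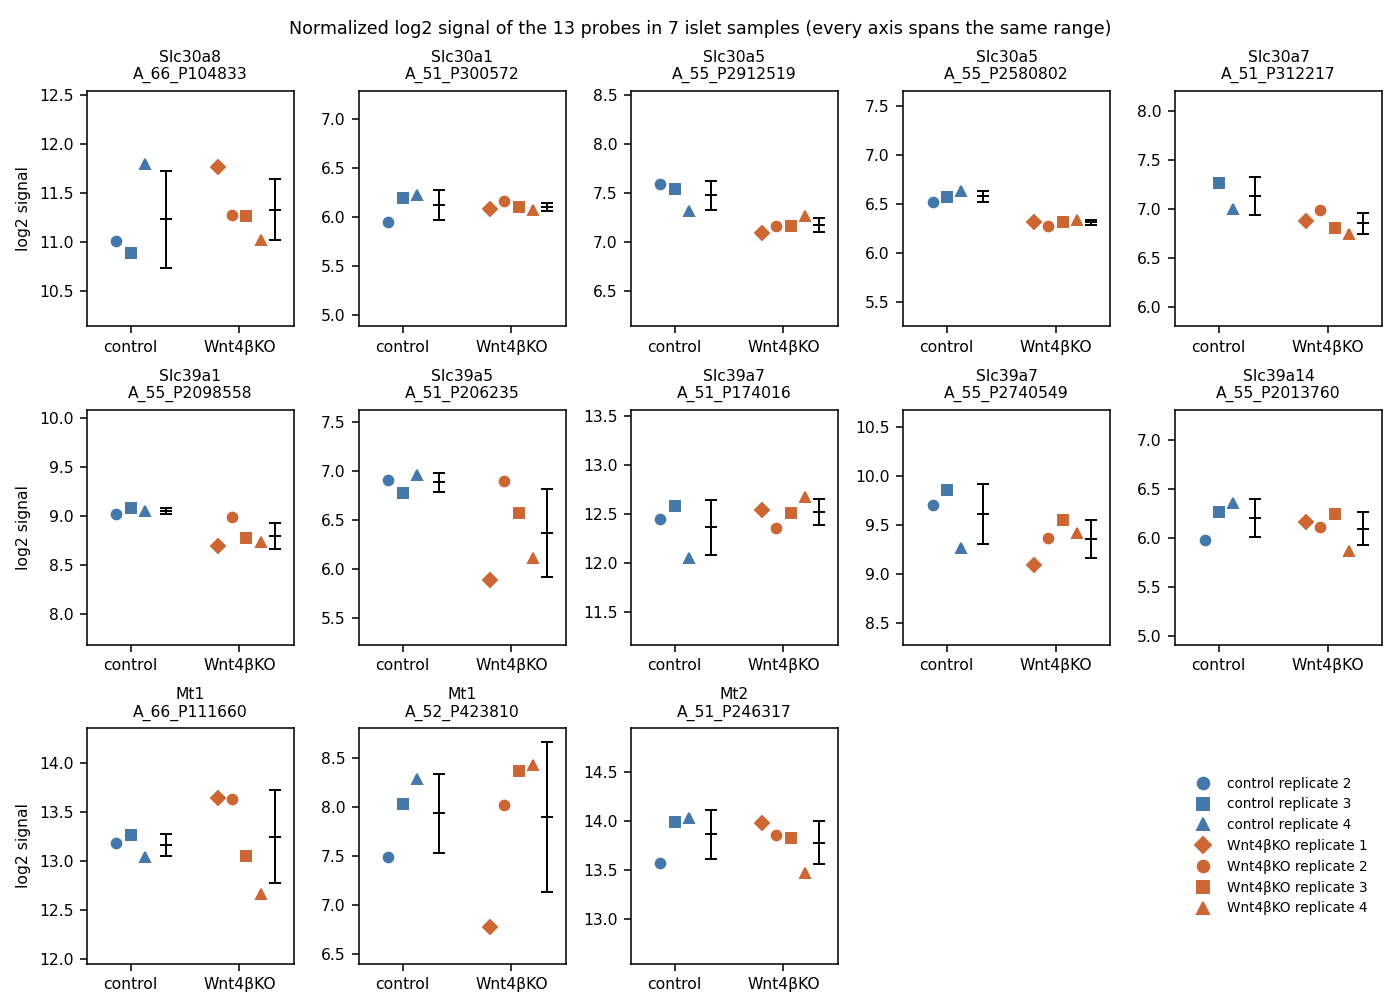
Normalized log2 signal (vertical axis) of each of the 13 probes in the 3 control and 4 Wnt4βKO samples, with points per sample and the mean ± SD beside them. The groups are apart for both Slc30a5 probes, Slc30a7 and Slc39a1, and the sample of control replicate 2 is missing for Slc30a7.

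Slc30a8 encodes ZnT8, the transporter that loads zinc into insulin granules and the product of a type 2 diabetes risk gene. Control islets gave log2 signals of 11.01, 10.89 and 11.80 (replicates 2 to 4), and Wnt4βKO islets gave 11.76, 11.27, 11.26 and 11.02 (replicates 1 to 4). Samples are listed in this order throughout. Control replicate 4 and Wnt4βKO replicate 1 were the high samples of their groups, and the groups overlapped over most of their range. Between the groups it differed by 0.10 ± 0.26 (SE), with an unadjusted limma p of 0.710 and an adjusted p of 0.965. The level in Wnt4βKO was 107% of control, with a 95% interval from 70.7% to 162%. The spread around the group means (SD 0.40) was above that of 92.5% of the tested probes. The difference was negative without Wnt4βKO replicate 1 (-0.047), without control replicate 3 (-0.075) and without control replicate 2 (-0.010).

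The other genes of the insulin granule were read from a list of 15, all of them tested. Of these, 2 had an unadjusted p under 0.05, both higher, and none lower, where 4.38% of all tested genes passed higher and 8.98% in either direction. Ins1, one of the mouse insulin genes, had a log2 difference of 0.30 (adjusted p = 0.651), and Pam, which amidates secreted peptides, had 0.49 (adjusted p = 0.664). For both the groups were apart. Pcsk2, a proinsulin convertase, had 0.26 (adjusted p = 0.783). The list median was 0.011, against 0.005 over all tested genes, and it was -0.049 with cyclic loess normalization. No member passed adjustment.

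Slc30a5 and Slc30a7 encode ZnT5 and ZnT7, which carry zinc into the early secretory pathway, where zinc is built into secreted enzymes. For Slc30a5 the probe A_55_P2580802 read 6.51, 6.57 and 6.63 in control and 6.31, 6.27, 6.31 and 6.33 in Wnt4βKO islets. All 4 Wnt4βKO values lay below all 3 control values, within a range narrow for either group. This was a log2 difference of -0.27 ± 0.06 (SE), a level of 83.2% of control (95% interval 74.9% to 92.4%). The unadjusted limma p was 0.00415 and the adjusted p was 0.507.

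The other probe of Slc30a5, A_55_P2912519, read 7.59, 7.54 and 7.32 in control and 7.10, 7.17, 7.17 and 7.27 in Wnt4βKO islets. Here too the groups were apart, by a small gap between control replicate 4 and Wnt4βKO replicate 4. The log2 difference was -0.31 ± 0.09 (SE), a level of 80.9% of control (69.9% to 93.6%), with an unadjusted limma p of 0.0107 and an adjusted p of 0.600. The probes thus had the same sign and intervals that overlapped widely, but their control samples ran in opposite order. Control replicate 4 was the lowest control for A_55_P2912519 and the highest for A_55_P2580802. Within the slide rows the differences of A_55_P2912519 were -0.18 (1 control and 2 Wnt4βKO samples) and -0.35 (2 and 2). Those of A_55_P2580802 were -0.34 and -0.22. Among the other members, Slc30a8 (-0.28 and 0.19), Slc30a1 and both Mt1 probes changed sign between the rows. The rest kept their sign, with Slc30a7 at -0.06 and -0.49.

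A_55_P2580802 was dim, and the median level of probes well above background on no array was 5.81 on the same scale. The offset of 50 added to every spot narrows the differences of such probes and also their spread. The spread of A_55_P2580802 around the group means (SD 0.043) was above that of only 2.81% of the tested probes. With an offset of 0 its log2 difference was -0.63, and with the processed signal of the scanner software it was -1.13. Its unadjusted p stayed under 0.05 in 20 of 20 alternatives, with p-values from 0.000182 to 0.0251, while the adjusted p was 0.364 or more in all of them. The probe A_55_P2912519 kept an unadjusted p under 0.05 in 15 of 20 alternatives. Where it lost that call the difference was about as large, at -0.30 with the processed signal (unadjusted limma p of 0.167) and -0.28 with the acinar mean as a covariate (unadjusted limma p of 0.0914).

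**Figure D3:**
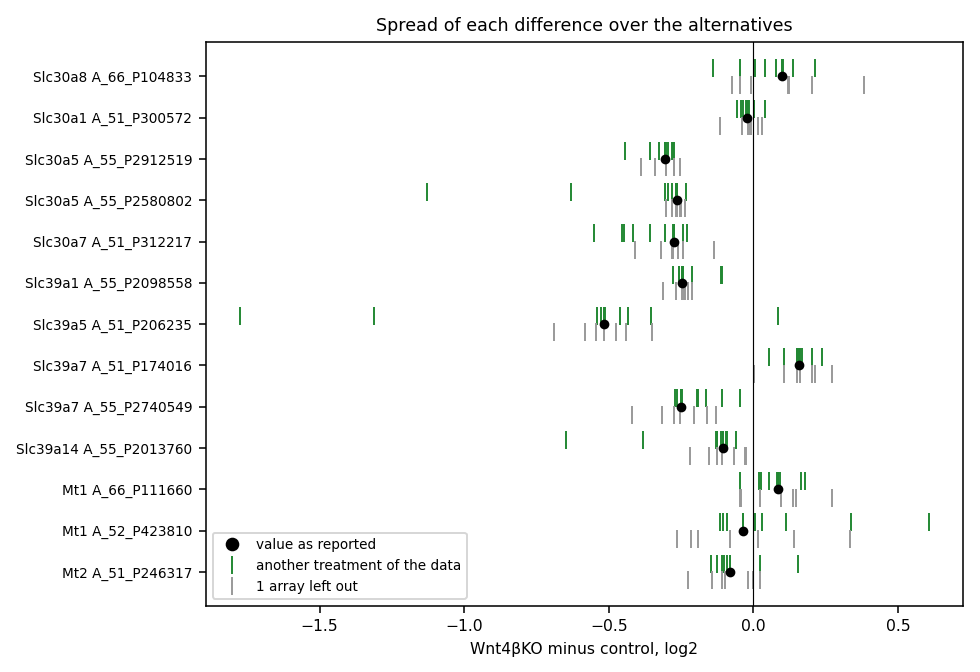
Log2 difference of each probe, Wnt4βKO minus control (horizontal axis), as reported (black) and over the alternatives (green ticks, other treatments of the data; grey ticks, 1 array left out). Both Slc30a5 probes, Slc30a7, Slc39a1, Slc39a14 and Slc39a7 A_55_P2740549 stay below 0 throughout, and Slc39a7 A_51_P174016 stays above it. Slc30a8, Slc30a1, Slc39a5, Mt1 and Mt2 fall on both sides.

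For Slc30a7 the scanner software flagged the spot of control replicate 2 as an outlier, and that value was left out. The remaining control samples read 7.27 and 7.00, and the Wnt4βKO samples read 6.88, 6.99, 6.81 and 6.75. Control replicate 4 and Wnt4βKO replicate 2 almost met. The fitted log2 difference was -0.28 ± 0.12 (SE, 2 control and 4 Wnt4βKO samples), with an unadjusted limma p of 0.0517 and an adjusted p of 0.718. Without control replicate 3 it was -0.14 and without control replicate 4 it was -0.41. Each leaves 1 control sample, which the fit assumes to vary as the Wnt4βKO samples do. With the flagged spot kept the difference was -0.55 (adjusted p = 0.678).

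Slc30a1 encodes ZnT1, the exporter of the plasma membrane and a target of MTF1. It read 5.95, 6.20 and 6.23 in control and 6.08, 6.17, 6.10 and 6.07 in Wnt4βKO islets, dim values close to the background level. Every Wnt4βKO value lay inside the control range. The log2 difference was -0.02 ± 0.09 (SE), with an unadjusted limma p of 0.817 and an adjusted p of 0.978. The level was 98.6% of control (85.5% to 114%).

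Among the importers, Slc39a1 encodes ZIP1, a plasma membrane transporter found in most cells. It read 9.01, 9.08 and 9.05 in control and 8.69, 8.99, 8.78 and 8.73 in Wnt4βKO islets. The control samples were close together, and Wnt4βKO replicate 2 lay just below them. The log2 difference was -0.25 ± 0.09 (SE), a level of 84.2% of control, with an unadjusted limma p of 0.0250 and an adjusted p of 0.651. The unadjusted p stayed under 0.05 in 9 of 20 alternatives. With the processed signal the difference was -0.11, and with the acinar mean as a covariate it was also -0.11.

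Slc39a5 encodes ZIP5, which is found on the basolateral side of pancreatic acinar and intestinal cells. Which cells gave its signal in these islet samples was not tested. It read 6.91, 6.78 and 6.97 in control and 5.89, 6.90, 6.57 and 6.12 in Wnt4βKO islets. Wnt4βKO replicates 1 and 4 were low and close to the background level, and replicate 2 lay among the control values. The probe was well above background on 6 of 7 arrays. On the log2 scale the difference was -0.52 ± 0.23 (SE), with a 95% interval from -1.06 to 0.03, an unadjusted limma p of 0.0597 and an adjusted p of 0.731. The mean of the acinar genes in Wnt4βKO replicates 1 to 4 was 12.23, 13.25, 13.17 and 12.57, in the same order as Slc39a5. In control replicates 2 to 4 it was 13.55, 13.44 and 13.43, not in the order of Slc39a5. The control sample lowest in the acinar mean, replicate 4, was the highest control in Slc39a5. With that mean as a covariate the difference of Slc39a5 was 0.083. It was -1.31 with an offset of 0, -1.77 with the processed signal, -0.69 without Wnt4βKO replicate 2 (unadjusted limma p of 0.00743) and -0.35 without replicate 1, and 4 of 19 alternatives had an unadjusted p under 0.05. Of the 26 acinar genes, 22 were lower, as were 6630 of the 13668 over all tested genes. An unadjusted p under 0.05 was reached by 9 of the 26, all lower, where 4.61% of all tested genes passed lower. The log2 differences of Ptf1a, an acinar transcription factor, Cuzd1, a zymogen granule protein, and Pnliprp1, a lipase-related protein, were -1.25, -2.07 and -0.96. The acinar mean did not overlap between the groups, so the covariate cannot tell acinar signal and genotype apart. The part of the acinar signal in the result was not tested.

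**Figure D4:**
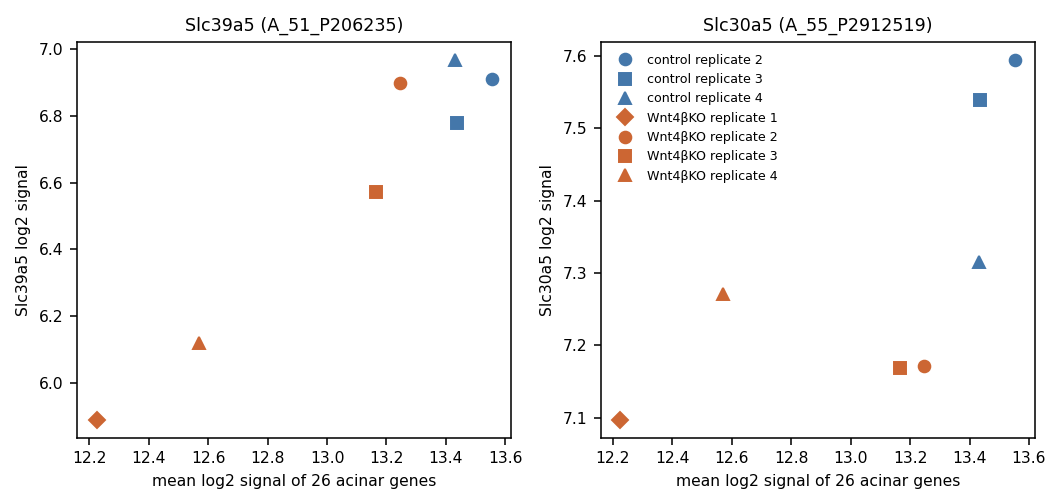
Log2 signal of Slc39a5 (left) and of the Slc30a5 probe A_55_P2912519 (right) against the mean log2 signal of 26 acinar genes, with 1 point per sample. The lowest Slc39a5 values, 5.89 and 6.12, belong to the samples with the lowest acinar means.

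Slc39a7 encodes ZIP7, which releases zinc from the endoplasmic reticulum. Its probe A_51_P174016 read 12.45, 12.58 and 12.05 in control and 12.54, 12.35, 12.51 and 12.67 in Wnt4βKO islets, a log2 difference of 0.16 ± 0.14 (SE, adjusted p = 0.880). Its probe A_55_P2740549 read 9.71, 9.86 and 9.27 in control and 9.10, 9.37, 9.55 and 9.42 in Wnt4βKO islets, a difference of -0.25 ± 0.16 (adjusted p = 0.828). The signs differed between the probes, and control replicate 4 was the low control sample in both. Without it the differences were 0.0015 for A_51_P174016 and -0.42 for A_55_P2740549 (unadjusted limma p of 0.0213, adjusted p = 0.608). With the acinar mean as a covariate that of A_55_P2740549 was -0.048. Slc39a14 encodes ZIP14, which also carries iron and manganese and is induced in inflammation. It read 5.98, 6.26 and 6.35 in control and 6.16, 6.10, 6.24 and 5.86 in Wnt4βKO islets, with groups that overlapped. The difference was -0.10 ± 0.13 (SE, adjusted p = 0.912), and the probe was well above background on 6 of 7 arrays.

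The metallothioneins Mt1 and Mt2 are the widely expressed, zinc-inducible members of their family. Mt1 probe A_66_P111660 read 13.18, 13.26 and 13.03 in control and 13.64, 13.62, 13.05 and 12.66 in Wnt4βKO islets. The control samples were close together, while the Wnt4βKO samples lay on both sides of them. For this probe the log2 difference was 0.08 ± 0.24 (SE), with a 95% interval from -0.49 to 0.65 and an unadjusted limma p of 0.741 (adjusted p = 0.969).

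The other Mt1 probe, A_52_P423810, was designed on a transcript that RefSeq predicts rather than curates. It read 7.49, 8.03 and 8.28 in control and 6.78, 8.02, 8.37 and 8.43 in Wnt4βKO islets. Wnt4βKO replicate 1 was its lowest sample and replicate 4 its highest, the reverse of the other Mt1 probe. The log2 difference was -0.04 ± 0.41 (SE, adjusted p = 0.993), and the spread around the group means (SD 0.65) was above that of 98.8% of tested probes.

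Mt2 read 13.57, 13.99 and 14.02 in control and 13.98, 13.85, 13.82 and 13.46 in Wnt4βKO islets. Control replicate 2 and Wnt4βKO replicate 4 were the low samples, and the groups overlapped. The log2 difference was -0.08 ± 0.16 (SE), with a 95% interval from -0.45 to 0.29 and an unadjusted limma p of 0.621 (adjusted p = 0.947). For Mt1 and Mt2 the sign of the difference depended on the samples and settings used.

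The rest of both transporter families, the other metallothioneins and MTF1 were read as 19 genes, of which 14 were tested, 1 probe each. None of the 14 had an unadjusted limma p under 0.05, where 8.98% of all tested genes passed. None had groups that were apart, as 1145 of the 13668 tested genes had. A list of 14 genes is too short to tell none from these shares. The differences were negative for 9 and positive for 5, between -0.34 and 0.40. Their median was -0.10, and it was 0.022 without control replicate 2 and 0.037 with the acinar mean as a covariate. The smallest p-values belonged to Slc39a9 (ZIP9, -0.34, adjusted p = 0.763) and Slc39a13 (ZIP13, 0.40, adjusted p = 0.766). Next were Slc39a6 (ZIP6, 0.19), Slc39a10 (ZIP10, -0.15), Slc30a4 (ZnT4, -0.15) and Slc30a2 (ZnT2, -0.10), with adjusted p-values from 0.809 to 0.867. Slc39a9 was highest in control replicate 3, at 8.04, and Slc39a13 was highest in Wnt4βKO replicate 4, at 9.19. Slc30a3, Slc30a10, Slc39a2, Slc39a8 and Slc39a12 were too dim to be tested.

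**Figure D5:**
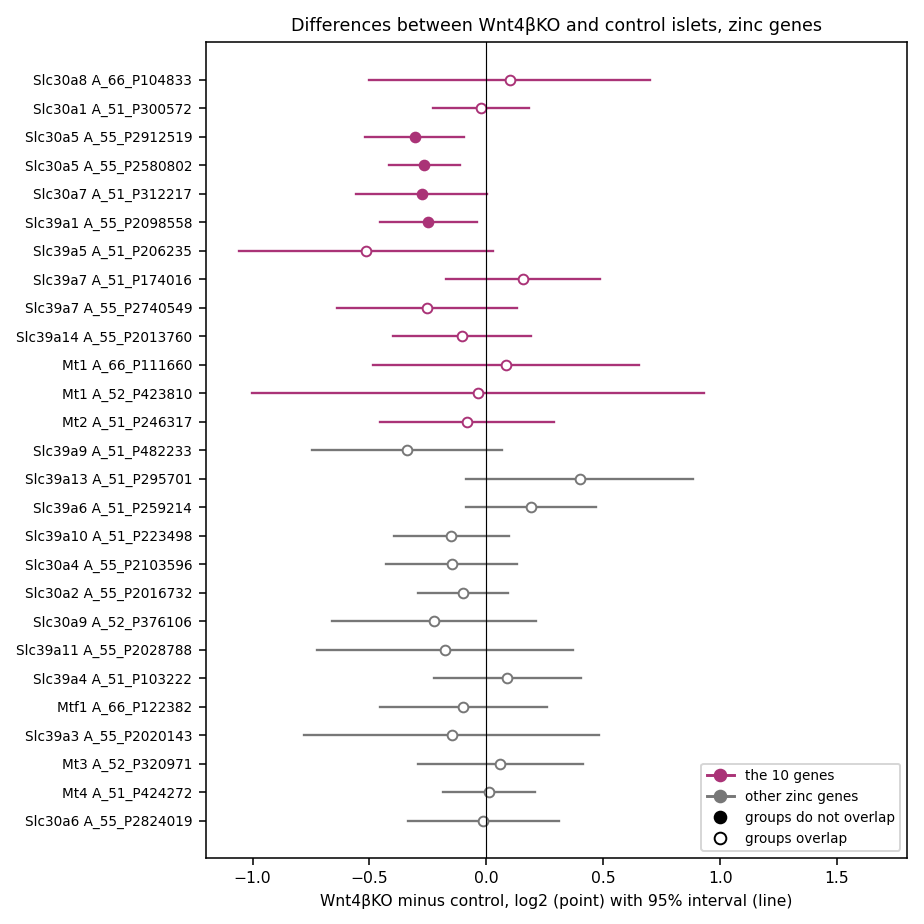
Log2 difference, Wnt4βKO minus control (horizontal axis), with its 95% interval for the 13 probes (purple) and for 14 other zinc genes (grey, 1 probe each). Filled points mark probes whose groups do not overlap. They are 4 of the 13 probes, both probes of Slc30a5 among them, and none of the 14.

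Programmes known to act on metallothioneins or on zinc transporters were read in the same fit. In the glucocorticoid response, 0 of 9 tested genes had an unadjusted limma p under 0.05, where 8.98% of all tested genes passed. The median log2 difference was -0.25. Without control replicate 4, the high sample of this list (8.53 against 8.10 and 8.19), the median was -0.11. Errfi1, a feedback inhibitor of growth factor receptors, Klf9 and Tsc22d3, both steroid-induced regulators, had log2 differences of -0.68, -0.40 and -0.28. In the oxidative stress response 0 of 6 tested genes passed, with a median of 0.024 (-0.009 with median scaling). Lists of 9 and 6 genes are too short to tell none from a share of 8.98%. Srxn1, Gclm and Nqo1, which encode antioxidant enzymes, had differences of -0.22, 0.16 and 0.11.

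Of 6 heat shock genes, which heavy metals also induce, 3 had an unadjusted p under 0.05, all lower, where 4.61% of all tested genes passed lower. The list median was -0.55, and -0.27 without control replicate 4. These were Hspa1a (-0.77, adjusted p = 0.630), Hsph1 (-0.57, adjusted p = 0.675) and Hspa1b (-0.57, adjusted p = 0.675), which encode inducible chaperones. The mean of the list was 8.49, 8.59 and 9.22 in control replicates 2 to 4 and 8.23 to 8.40 in Wnt4βKO islets, without overlap. Hspa1a and Hspa1b are near-identical copies, so their probes may read each other's transcripts.

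In the acute phase list, 1 of 5 tested genes passed lower, Cebpd, which encodes a transcription factor (-1.05, adjusted p = 0.623), beside 4.61% of all tested genes. The median of -0.10 turned to 0.055 without control replicate 3 and to 0.078 without Wnt4βKO replicate 1, and it was -0.31 without control replicate 2. The unfolded protein response, which follows the load of the secretory pathway, had 14 tested genes, and all 14 differences were negative, as were 6630 of the 13668 over all tested genes. The list median was -0.21. An unadjusted p under 0.05 was reached lower by 4.61% of all tested genes and by 2 of the 14, Edem1 (-0.68, adjusted p = 0.636), which helps to clear misfolded proteins, and Dnajb9 (-0.65, adjusted p = 0.643), a chaperone. The list means overlapped, at 9.76 to 9.91 in control and 9.44 to 9.82 in Wnt4βKO islets. None of the genes of these lists passed adjustment.

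Other cell types were read from markers. The beta cell list had 12 tested genes, of which 3 passed lower and 1 higher without adjustment, beside 4.61% lower and 4.38% higher over all tested genes. Its median was -0.008 (0.087 with the processed signal). Its mean was 11.01 to 11.09 in control and 10.79 to 10.90 in Wnt4βKO islets, without overlap. Its separation included the low Slc2a2. No gene of the alpha, delta and PP, duct, endothelium, mesenchyme or immune lists passed without adjustment, where 8.98% of all tested genes did. Each of these lists is too short to tell none from that share. All 10 tested immune genes had positive differences, as had 7038 of the 13668 over all tested genes. The median of the list was 0.40, against 0.005 over all tested genes. The mean of the list overlapped, at 7.39 to 7.51 in control islets. It was 7.40 to 7.62 in Wnt4βKO replicates 1 to 3 and 8.46 in replicate 4. Without Wnt4βKO replicate 4 the median was 0.12. The part of these shifts in the zinc genes was not tested.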

How the data were processed

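Islet RNA of 3 control and 4 Wnt4βKO samples was labelled with Cy3 (50 ng each) and hybridised to 1-colour arrays of 1 slide, read in 1 scan. The authors deposited 1 scanner output per array, with spot intensities on a linear scale (Agilent Feature Extraction 12.0.1.1 per the file headers), not normalized between arrays. Median spot signals were background-corrected with normexp (offset 50) and quantile normalized, as the study's methods state, in limma 3.58.1 under R 4.3.3. After that correction the control spots were dropped, outlier-flagged spots became missing values, and repeated spots were combined by their mean. A probe was tested (26153 of 56605) where 3 or more of the 7 arrays showed it well above background. Differences were fitted with lmFit and eBayes, two-sided, with Benjamini-Hochberg adjustment over all tested probes. The precision is limited by the number of arrays.

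Probes were named by accession through a RefSeq table of GRCm38.p6, which named 32994 (58.3%). Gene lists used the brightest probe of each gene. All members, the checks Wnt4 and Slc2a2, other zinc genes past an unadjusted 0.05 or else the 6 with the smallest p, and at most 3 genes by p of each further list were named, with markers of a cell type named only where its mean did not overlap. The members and lists were chosen with earlier results of these data known. Alternatives covered background, normalization, filter, variance model, covariates, blocks and each array left out. A block for the slide row and keeping flagged spots were added after seeing the data. The fit was tested on simulated data. The comparison of member proteins was not made. A deposited table of log2 values (7 columns) did not match the scanner arrays and was not used. Figures were drawn with matplotlib 3.10.9 in Python 3.11.15.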

Additional observations from a re-analysis of the deposited data

Results flagged for a closer look

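The spiked-in control RNA, measured by 4 probes outside the comparisons, read higher relative to the 75th percentile of its array in every Wnt4βKO sample (2.29 to 3.89 on the log2 scale) than in every control sample (1.86 to 2.15). The difference of the means was 0.90. Its part in the zinc results was not tested. Among 14 values examined for a sample far from the rest of the Wnt4βKO group, none stood apart, where chance flags about 1 in 20.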

How the results depend on the processing

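No zinc probe passed adjustment in the reported fit or in any of 20 alternatives. Over all tested probes, 4 passed, against 2 to 7 over the alternatives. Without adjustment 1835 passed, against 623 with the acinar mean as a covariate, 771 with median scaling and 2921 without a filter on dim probes. Of the 1835, 46.5% were higher in Wnt4βKO, against 29.3% with median scaling.

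The count of zinc probes with an unadjusted p under 0.05, 3 as reported, was 1 with median scaling and 1 with the acinar mean as a covariate, leaving only Slc30a5 A_55_P2580802 in both. The lost calls kept their direction, with Slc30a5 A_55_P2912519 at -0.36 and -0.28 in these settings (-0.31 as reported) and Slc39a1 at -0.26 and -0.11 (-0.25 as reported). It ranged from 2 to 5 with 1 array left out, with 5 without Wnt4βKO replicate 2. For the other zinc genes the count was 1 with the processed signal, 1 with the slide row as a block and 0 to 1 with 1 array left out, where the genes were Slc39a13, Slc39a9, Mtf1 and Slc39a6.

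Of 278 values of single probes under alternatives, 254 kept their direction and 24 reversed. These include 20 values of Wnt4, which all kept their direction, so every reversal was in a zinc probe. Slc30a8 was -0.046 with the replicate block, -0.14 with the acinar covariate and -0.075 to 0.38 with 1 array left out. Slc30a1 was 0.040 with the processed signal, 0.0013 with the acinar covariate and -0.11 to 0.031 with 1 array left out. Mt1 A_66_P111660 was -0.048 with the replicate block and -0.047 to 0.27 with 1 array left out. Mt1 A_52_P423810 was 0.0042 with the processed signal, 0.11 with array weights, 0.34 with the replicate block (unadjusted p = 0.0329), 0.61 with the acinar covariate, 0.028 with the slide row as a block and -0.26 to 0.33 with 1 array left out. Mt2 was 0.16 with the processed signal, 0.022 with median scaling and -0.23 to 0.022 with 1 array left out. Slc39a5 was 0.083 with the acinar covariate, and as the mean over its probes the gene Slc39a7 was -0.047. Causes of these reversals were not tested.

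Whether the replicate numbers pair the samples is not stated in the labels. The deviations of same-numbered samples from their group means correlated at -0.129 to 0.231, which cannot decide it with so few samples. With the number as a block, 1578 probes passed without adjustment and 2 with it, and 2 of the zinc probes passed without it. Slc39a5 and Slc39a14 have no value when all 7 arrays must be well above background. Slc30a1, Slc39a14 and Slc30a5 A_55_P2580802 lie near background, as do the Slc39a5 values of Wnt4βKO replicates 1 and 4. This limits what the differences of these genes can show.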
